A study of Homo sapiens with 6 samples.

Results

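Expression of 9 enzymes of glutamine, glutamate, asparagine, aspartate and proline metabolism was examined in SK-N-AS neuroblastoma cells with and without induced MYCN. The 9 genes, GLS2, GLUL, GLUD1, ASNS, GOT1, GOT2, GPT2, PYCR1 and ALDH18A1, were a named list of the pathway, chosen with earlier results of these data known. All 9 were found among the 60651 gene identifiers of the count data by matching the identifier, without its version, to a gene symbol. SK-N-AS is an established neuroblastoma cell line without MYCN amplification. The cells stably carried MYCN under control of the tetracycline repressor system and were kept as single clones in 500 µg/ml G418 and 5 µg/ml blasticidin, so both groups carried the transgene and received both selection drugs. The 3 control cultures, labelled ETOH, and the 3 MYCN-induced cultures, labelled Tet, were harvested at 120 h (5 days), and the question was which of these enzymes changed in RNA level when tetracycline was added. Cells without the transgene that received tetracycline were not analysed here, so an effect of MYCN and an effect of tetracycline cannot be told apart.

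Glutamine carries amide nitrogen in the cell and is both made and used by enzymes of this list. GLUL joins ammonia to glutamate to make glutamine, GLS2 hydrolyses glutamine back to glutamate in mitochondria, and GLUD1 interconverts glutamate and alpha-ketoglutarate. ASNS transfers the glutamine amide to aspartate to make asparagine. The transaminases GOT1 (cytosol), GOT2 (mitochondria) and GPT2 (mitochondria) move the amino group of glutamate to make aspartate or alanine, and ALDH18A1 and PYCR1 catalyse the first and the last steps from glutamate to proline. Cells short of amino acids are known to raise ATF4, a transcription factor that acts on ASNS and on other genes of amino acid synthesis and uptake, and MYC family proteins are known to act on genes of glutamine metabolism in neuroblastoma.

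The libraries were made from RNA depleted of ribosomal RNA and held between 64500589 and 102249336 counted read pairs. Values below are CPM, read pairs of a gene scaled to the size of the library, after TMM normalization unless stated otherwise, and differences are log2 fold changes of MYCN-induced over control cells from edgeR's quasi-likelihood test, called where the Benjamini-Hochberg adjusted p was below 0.05. MYCN itself rose from 30.3, 35.5 and 32.4 CPM in the control libraries to 211, 221 and 199 CPM in the induced libraries (log2 fold change 2.68, SE 0.08, edgeR adjusted p = 4.155e-05), so all 6 libraries matched their labels. On the first principal component of all tested genes, which held 44.8% of the variance, induced replicate 3 lay at 69.1, against 14.4 and 13.1 for induced replicates 1 and 2 and between -40.3 and -25.9 for the controls. Differences that this library moved by over 1.5 times or across the threshold are also given without it. Of the 7 adrenergic neuroblastoma markers examined, 6 exceeded 1 TPM, a level scaled by exon length, in every library (TH, at 0.311 to 0.776 TPM, did not). Of 7 mesenchymal markers 4 did so, with CD44 at 0 counts throughout, and of 6 markers of blood, endothelial, epithelial or liver cells 0 did, with CD3E at 0 counts and PTPRC at no more than 0.414 TPM.

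The 9 enzymes were detected in every library and all passed the count filter, and each had a higher mean in the induced cells than in the controls. After adjustment over all 29086 tested genes, 1 of the 9, ALDH18A1, rose and 0 fell, where 1.02% of all tested genes rose and 2.38% fell. At an unadjusted edgeR p below 0.05, 8 of the 9 were higher in the induced cells (all but GLUL), against 8.13% of all tested genes. The 3 induced libraries all lay above the 3 control libraries in CPM for 8 of the 9 (all but GOT1). The share over all tested genes was 11.5%. In TPM, which was not TMM-normalized, the groups overlapped for GLUL, GLS2, GLUD1, GOT2 and ALDH18A1 but not for GOT1. The separation of these genes therefore depended on the scaling. The median log2 fold change of the 9 was 0.43, against -0.0004 over all tested genes. Relative to the control mean of each gene, the median of the 9 was 0.37, 0.22 and 0.28 on the log2 scale in induced replicates 1, 2 and 3, and between -0.03 and 0.06 in the control libraries. These 9 values come from the same 6 libraries and are not independent of each other. Because the list was chosen with earlier results of these data known, its shares beside those of all tested genes are a description only.

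The calls depended on which libraries were kept. Leaving out any 1 of the 3 controls or induced replicate 1 left 0 of the 9 called, and without induced replicate 2 ASNS and GPT2 were called. Calls also became fewer over all tested genes, of which 298 of 29086 rose with all 6 libraries. Without control replicate 1, 2 or 3, 46 of 28433, 18 of 28577 and 30 of 28438 genes rose. Without induced replicate 1 or 2, 73 of 28929 and 169 of 28690 genes rose. Without induced replicate 3, 3 of the 9 rose (ASNS, GPT2 and ALDH18A1), where 3.68% of the 28797 genes then tested rose, and the median log2 fold change of the 9 was 0.30. With DESeq2 on all 6 libraries, 2 of the 9 rose (ASNS and ALDH18A1), where 3.11% of all tested genes rose. The sign of the difference was positive for each of the 9 enzymes in every alternative run.

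**Figure D1:**
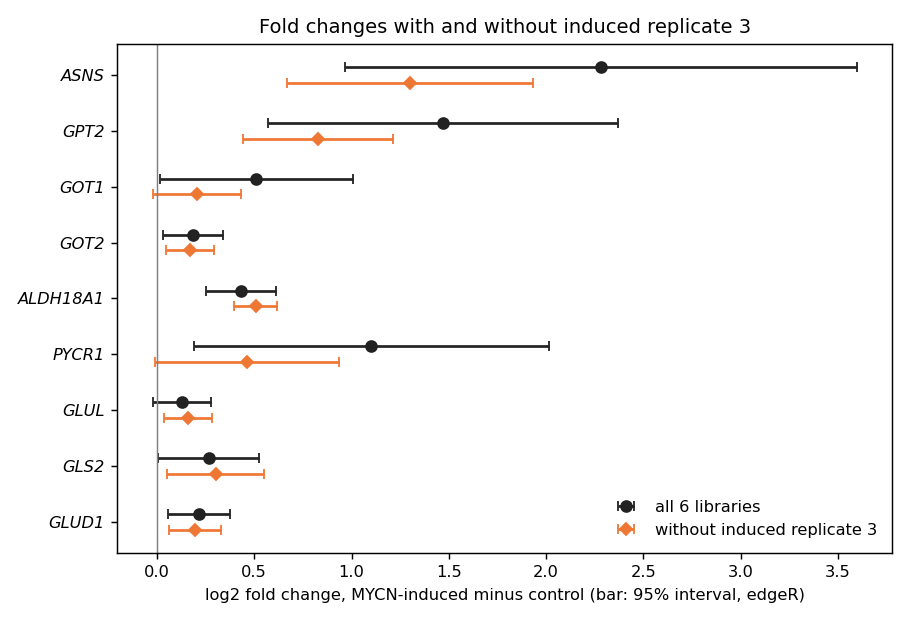
Log2 fold change of each of the 9 enzymes, MYCN-induced minus control, with its unadjusted 95% interval from edgeR, over all 6 libraries (black) and without induced replicate 3 (orange). ASNS, GPT2 and PYCR1 moved furthest between the fits, from 2.28 to 1.30, from 1.47 to 0.83 and from 1.10 to 0.46, and ALDH18A1 had one of the narrower intervals, 0.25 to 0.61.

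ASNS, asparagine synthetase (ENSG00000070669.17, GRCh38, chr7:97851677-97872542, minus strand), showed the largest difference of the 9. The RefSeq promoter window of its upstream start site (GRCh38.p14, chr7:97872359-97872658, minus strand, 250 bases before to 50 bases after the start) is printed because it holds a match to the amino acid response element TGATGNAA, the motif at which ATF4 is known to bind with C/EBP partners. The match, in capitals, begins at position -68 relative to the start, and the motif on either strand was found in 3.62% of the 35116 RefSeq promoter windows.
ASNS: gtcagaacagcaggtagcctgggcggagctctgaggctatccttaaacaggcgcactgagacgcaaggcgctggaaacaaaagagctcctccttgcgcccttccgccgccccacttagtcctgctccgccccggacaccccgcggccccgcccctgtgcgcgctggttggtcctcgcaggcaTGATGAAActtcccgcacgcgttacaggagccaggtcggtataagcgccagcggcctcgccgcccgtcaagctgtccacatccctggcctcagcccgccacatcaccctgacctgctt

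The 3 control libraries held 16.9, 15.9 and 15.8 CPM of ASNS and the 3 induced libraries held 53.9, 25.7 and 157 CPM. All induced libraries lay above all controls, but the induced libraries were far apart, at 3.32, 1.58 and 9.70 times the control mean in replicates 1, 2 and 3. The means were 16.2 ± 0.624 (SD, n = 3) and 78.9 ± 69.2 CPM (SD, n = 3), with a log2 fold change of 2.28 (SE 0.57, 95% interval 0.97 to 3.60) that did not pass the threshold (edgeR adjusted p = 0.0780). Without induced replicate 3 the difference was smaller and passed, with a log2 fold change of 1.30 (SE 0.27, 95% interval 0.67 to 1.93, edgeR adjusted p = 0.0334). Over the alternatives run, the log2 fold change ran from 1.30 to 2.704 and the adjusted p from 0.0195 to 0.281.

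The exons of ASNS share 2415 of their 4896 bases (49.3%) with ENSG00000284707, a noncoding gene annotated on the same strand, and pairs in the shared stretch were divided equally between both genes. ENSG00000284707 held 17.3, 16.2 and 16.3 CPM in the controls and 50.2, 25.4 and 146 CPM in the induced libraries, in the same order as ASNS. With both genes summed, the locus held 34.2, 32.1 and 32.2 CPM in the controls and 104, 51.0 and 304 CPM in the induced libraries. The log2 fold change of the sum was 2.22 (SE 0.56, edgeR adjusted p = 0.0804), close to that of ASNS alone, while the level of ASNS alone is uncertain by the share assigned to its neighbour. The pseudogene copy ASNSP1 ran from 6 to 724 counts and was also highest in induced replicate 3, at 8.54 CPM. It held 0.478 and 0.118 CPM in induced replicates 1 and 2 and no more than 0.0955 CPM in the controls.

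Of the transaminases, GPT2, the mitochondrial alanine aminotransferase (ENSG00000166123.14, chr16:46884362-46931289, plus strand), had the second largest difference of the 9. Control libraries held 29.6, 35.2 and 34.1 CPM and induced libraries 69.5, 47.0 and 157 CPM. The groups did not overlap, and the induced libraries stood at 2.11, 1.43 and 4.77 times the control mean. The means were 32.9 ± 2.98 and 91.2 ± 58.2 CPM (SD, n = 3 each), with a log2 fold change of 1.47 (SE 0.39, 95% interval 0.57 to 2.37, edgeR adjusted p = 0.0919). Without induced replicate 3 GPT2 passed the threshold, with a log2 fold change of 0.83 (SE 0.16, 95% interval 0.44 to 1.22, edgeR adjusted p = 0.0298). The exons of GPT2 overlap no other annotated gene.

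GOT1, the cytosolic aspartate aminotransferase (ENSG00000120053.12, chr10:99396870-99430624, minus strand), was the other member whose RefSeq promoter window held TGATGNAA. In the window (GRCh38.p14, chr10:99430575-99430874, minus strand) the motif lies on the opposite strand, so the capitals show its reverse complement, starting at position -198.
GOT1: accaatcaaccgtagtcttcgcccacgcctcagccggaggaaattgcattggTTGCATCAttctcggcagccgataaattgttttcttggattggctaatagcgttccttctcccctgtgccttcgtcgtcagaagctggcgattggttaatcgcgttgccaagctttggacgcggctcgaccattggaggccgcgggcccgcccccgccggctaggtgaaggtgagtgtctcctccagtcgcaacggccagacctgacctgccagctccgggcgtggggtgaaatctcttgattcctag

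GOT1 held 21.0, 20.3 and 18.5 CPM in the control libraries and 24.9, 20.9 and 39.4 CPM in the induced libraries. It was the only one of the 9 whose groups overlapped in CPM, since induced replicate 2 lay below control replicate 1. In TPM its groups did not overlap (11.9 to 15.0 in the controls, 15.8 to 23.1 in the induced libraries). The log2 fold change was 0.51 (SE 0.21, 95% interval 0.02 to 1.0, edgeR adjusted p = 0.253), and without induced replicate 3 it was 0.21 (95% interval -0.02 to 0.43, adjusted p = 0.231).

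GOT2, the mitochondrial aspartate aminotransferase of the malate-aspartate shuttle (ENSG00000125166.13, chr16:58707131-58734342, minus strand), held 82.4, 78.9 and 75.0 CPM in the controls and 88.6, 87.4 and 92.6 CPM in the induced libraries. In CPM the groups did not overlap, and the induced libraries were within 1.06 times of each other. In TPM the groups overlapped (38.0 in control replicate 1, 35.0 in induced replicate 3). The means were 78.8 ± 3.74 and 89.5 ± 2.71 CPM (SD, n = 3 each), with a log2 fold change of 0.19 (SE 0.07, 95% interval 0.03 to 0.34, edgeR adjusted p = 0.186). The difference did not pass the threshold with or without induced replicate 3 (0.17, adjusted p = 0.0984, without it). A noncoding gene on the opposite strand shares 4.32% of the exon bases of GOT2.

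In the proline branch, ALDH18A1, the bifunctional enzyme that phosphorylates and reduces glutamate in the first committed steps (ENSG00000059573.9, chr10:95605941-95656711, minus strand), rose. Its RefSeq promoter window (GRCh38.p14, chr10:95656662-95656961, minus strand) is printed because it was the only window of the 7 matched enzymes with the E-box CACGTG, the motif that MYC family proteins are known to bind. The motif, in capitals, begins at position -136 and was present in 7.26% of all RefSeq promoter windows. Windows were matched for 7 of the 9 genes, GLUL and ASNS with more than 1 window each, and not for GPT2 and PYCR1. A match to these letters does not show binding.
ALDH18A1: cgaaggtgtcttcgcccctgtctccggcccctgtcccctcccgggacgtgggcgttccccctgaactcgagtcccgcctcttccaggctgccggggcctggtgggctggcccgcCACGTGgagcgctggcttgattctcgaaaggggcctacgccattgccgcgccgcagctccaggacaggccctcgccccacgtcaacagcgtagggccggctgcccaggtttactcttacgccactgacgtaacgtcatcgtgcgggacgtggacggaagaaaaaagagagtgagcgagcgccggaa

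ALDH18A1 held 71.0, 71.4 and 69.9 CPM in the control libraries and 98.2, 102 and 86.0 CPM in the induced libraries. Every induced library lay above every control in CPM, and induced replicate 3, the highest library for ASNS, was the lowest of the induced libraries here. In TPM the groups overlapped slightly (32.7 in control replicate 1, 32.5 in induced replicate 3). The means were 70.8 ± 0.796 and 95.4 ± 8.28 CPM (SD, n = 3 each), a 1.35-fold rise with a log2 fold change of 0.43 (SE 0.08, 95% interval 0.25 to 0.61, edgeR adjusted p = 0.0303). The call held without induced replicate 3 (0.51, edgeR adjusted p = 0.00319) and was lost when any other library was left out, at edgeR adjusted p between 0.0693 (without induced replicate 2) and 0.171 (without control replicate 2), with log2 fold changes from 0.38 to 0.44. It was also lost with scaling to library size only (0.40, adjusted p = 0.0859) and with upper-quartile normalization (0.40, adjusted p = 0.055). In each fit that lost the call, fewer genes rose over all tested genes (18 to 267) than in the main fit (298). No other annotated gene shares exons with ALDH18A1.

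PYCR1, the mitochondrial pyrroline-5-carboxylate reductase that forms proline (ENSG00000183010.17, chr17:81932384-81942412, minus strand), held 14.7, 21.4 and 22.8 CPM in the controls and 30.2, 23.8 and 72.4 CPM in the induced libraries. The groups did not overlap, but induced replicate 2 lay close to control replicate 3, and control replicate 1 was low within its group. The means were 19.6 ± 4.32 and 42.1 ± 26.4 CPM (SD, n = 3 each), with a log2 fold change of 1.10 (SE 0.39, 95% interval 0.19 to 2.01, edgeR adjusted p = 0.187). Without induced replicate 3 it was 0.46 (95% interval -0.01 to 0.94, adjusted p = 0.204). Other genes share 29.7% of the exon bases of PYCR1. An opposite-strand gene, ENSG00000263585, shares 15.6%, and MYADML2, on the same strand with 15 to 48.3 counts per library, shares 14.1%. The sum of PYCR1 and ENSG00000263585 gave a log2 fold change of 1.07 (edgeR adjusted p = 0.186).

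GLUL, GLS2 and GLUD1, which interconvert glutamine, glutamate and alpha-ketoglutarate, did not pass the threshold. GLUL, glutamine synthetase (ENSG00000135821.19, chr1:182378098-182392206, minus strand), held 196, 185 and 177 CPM in the controls and 208, 205 and 197 CPM in the induced libraries. In CPM the induced libraries all lay above the controls, with induced replicate 3 just above control replicate 1. In TPM the groups overlapped (26.8 in control replicate 1, 22.1 in induced replicate 3). The log2 fold change was 0.13 (SE 0.07, 95% interval -0.02 to 0.28, edgeR adjusted p = 0.346).

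GLS2, the p53-responsive mitochondrial glutaminase (ENSG00000135423.13, chr12:56470944-56488414, minus strand), was the lowest of the 9, at 4.44, 3.91 and 3.94 CPM in the controls and 5.30, 4.77 and 4.74 CPM in the induced libraries. The groups did not overlap in CPM but did in TPM (1.86 in control replicate 1, 1.62 in induced replicate 3). The log2 fold change was 0.27 (SE 0.11, 95% interval 0.01 to 0.53, edgeR adjusted p = 0.257). SPRYD4, on the opposite strand, shares 3194 of the 4141 exon bases of GLS2 (77.1%), and whether their reads were separated depends on the strand setting of the counting. The header of the counts names no strand option, while the study's methods list one. Among genes with at least 100 counts whose exons overlap others only on the opposite strand, 56.9% to 59.4% had a count that was not whole (off by over 0.001), against 21.5% to 24.9% of genes without overlap, so pairs in these files were shared across strands. Summed with SPRYD4, the locus held 22.5, 20.7 and 20.7 CPM in the controls and 24.7, 20.6 and 22.1 CPM in the induced libraries, which overlap, with a log2 fold change of 0.08 (95% interval -0.14 to 0.29, adjusted p = 0.726). Reads of GLS2 and SPRYD4 in the shared stretch cannot be told apart in these counts, and the value for GLS2 alone is uncertain.

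GLUD1, mitochondrial glutamate dehydrogenase (ENSG00000148672.9, chr10:87050202-87094843, minus strand), held 62.6, 58.7 and 60.1 CPM in the controls and 71.6, 66.0 and 73.0 CPM in the induced libraries. The groups did not overlap in CPM but did in TPM (28.7 in control replicate 1, 27.4 in induced replicate 3). The means were 60.5 ± 2.01 and 70.2 ± 3.71 CPM (SD, n = 3 each), with a log2 fold change of 0.21 (SE 0.07, 95% interval 0.06 to 0.37, edgeR adjusted p = 0.147). SHLD2, on the opposite strand, shares 12.3% of the exon bases of GLUD1, and counts on the copies GLUD1P3 and GLUD1P2 were at most 258 and 81 per library.

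**Figure D2:**
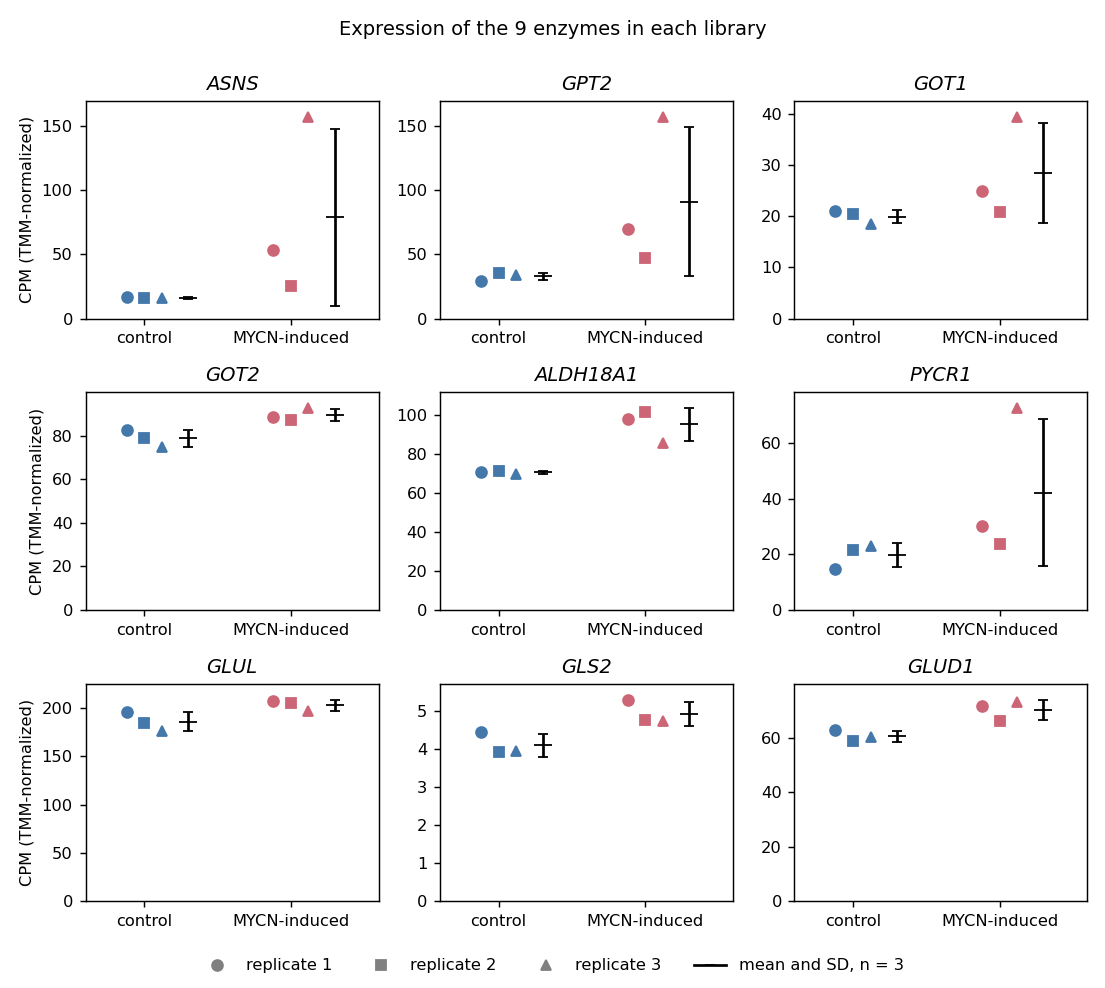
TMM-normalized CPM of each enzyme in the 3 control (blue) and 3 MYCN-induced (red) libraries, marker shape giving the replicate number, with the mean and SD (n = 3) beside each group on axes that start at 0. For ASNS, GPT2, PYCR1 and GOT1 induced replicate 3 stands far above the other induced libraries (157, 157, 72.4 and 39.4 CPM), while for ALDH18A1 it is the lowest induced library at 86.0 CPM.

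In CPM the order of the induced libraries differed between most of the enzymes and MYCN. ASNS, GPT2, PYCR1, GOT1, GOT2 and GLUD1 were highest in induced replicate 3 and lowest in induced replicate 2. MYCN was highest in replicate 2 and lowest in replicate 3, as was ALDH18A1. In TPM GOT2 (39.7, 42.7 and 35.0 in induced replicates 1, 2 and 3), GLUD1 (31.9, 32.0 and 27.4) and GLUL (27.6, 29.7 and 22.1) had the order of MYCN. ASNS, GPT2, PYCR1 and GOT1 kept theirs. The highest induced library exceeded the lowest by 6.13 times for ASNS, 3.35 times for GPT2, 3.04 times for PYCR1 and 1.88 times for GOT1, but only by 1.06 to 1.18 times for the other 5 enzymes and by 1.11 times for MYCN. In the controls the corresponding factor was at most 1.19 for all of the enzymes except PYCR1 (1.55). For MYCN (1.17), GOT2 (1.1), GLUL (1.11) and GLS2 (1.13) the control factor exceeded that of the induced libraries, so their order among the induced libraries lies within replicate spread.

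ATF4 and its associated genes DDIT3, a transcription factor of the stress response, and TRIB3, a pseudokinase, had the same order of the induced libraries as ASNS. ATF4 rose from 189, 189 and 204 CPM in the controls to 319, 300 and 547 CPM in the induced libraries (log2 fold change 1.0, SE 0.21, edgeR adjusted p = 0.0475). Without induced replicate 3 it was 0.69 (edgeR adjusted p = 0.00298). DDIT3 held 9.35, 8.56 and 8.43 CPM against 12.4, 11.2 and 27.7 CPM (0.96, adjusted p = 0.162, and 0.43, adjusted p = 0.0335, without that library). TRIB3 held 4.78, 5.25 and 5.22 CPM against 10.8, 6.57 and 68.0 CPM (2.49, edgeR adjusted p = 0.145, and 0.78, adjusted p = 0.0626, without it). The part of an amino acid or stress response in the values of ASNS, GPT2 and PYCR1 was not tested, and in these bulk samples a change per cell and a change in the share of responding cells cannot be told apart.

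**Figure D3:**
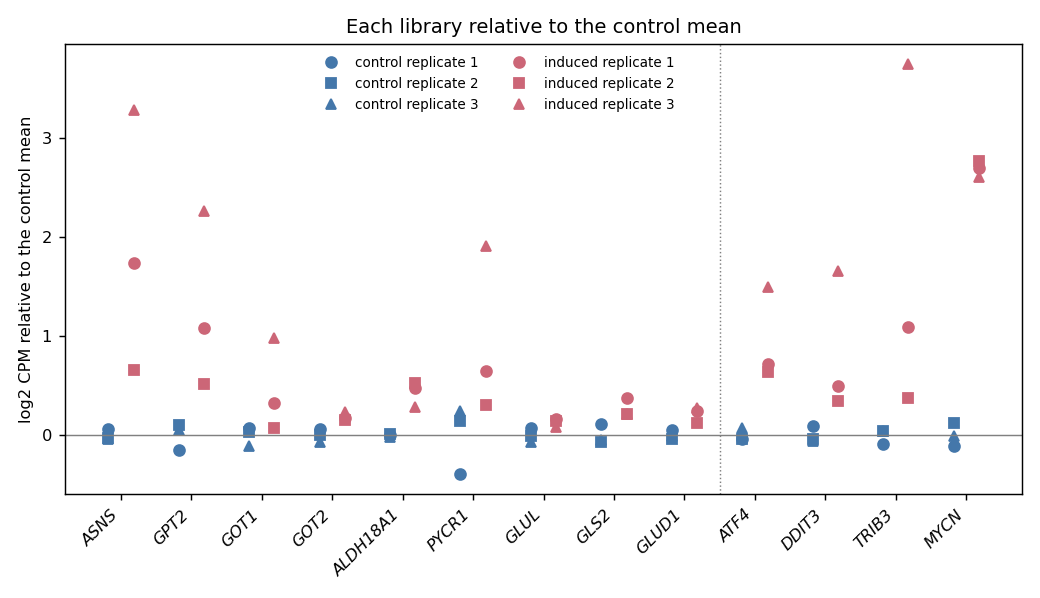
Log2 CPM of each library relative to the control mean of the gene, for the 9 enzymes and, right of the dotted line, ATF4, DDIT3, TRIB3 and MYCN; blue marks controls, red marks induced libraries and the marker shape gives the replicate number. Induced replicate 3 (triangles) lies at 3.28 for ASNS, 2.26 for GPT2 and 1.91 for PYCR1, while the 3 induced libraries lie within 2.60 to 2.76 for MYCN.

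Levels were compared between genes as TPM, which divides counts by the exon length. In the controls the order was GOT2 (34.5 ± 3.39 TPM, SD, n = 3), ALDH18A1 (30.9 ± 1.80), GLUD1 (26.3 ± 2.07), GLUL (24.2 ± 2.49), GOT1 (13.5 ± 1.54), PYCR1 (11.1 ± 1.97), GPT2 (8.48 ± 0.50), ASNS (5.44 ± 0.48) and GLS2 (1.63 ± 0.20). The ranges of neighbours overlapped for GOT2 and ALDH18A1, GLUD1 and GLUL, GOT1 and PYCR1, and PYCR1 and GPT2, and were apart for the other neighbours. GLUL has the highest CPM of the 9 but only the fourth TPM, because its annotated exons span 12638 bases. The place of ASNS depends on the equal division of shared pairs with ENSG00000284707, which itself held 5.28 TPM on average in the controls. The eighth place of ASNS and its distance from GPT2 are therefore uncertain.

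In the induced cells ASNS moved from the eighth to the fifth place, with 24.6 ± 18.7 TPM (SD, n = 3). ALDH18A1 was first at 42.0 ± 8.75 TPM, followed by GOT2 at 39.2 ± 3.87 TPM, and GLS2 remained last at 1.96 ± 0.29 TPM. Only the ranges of GOT2 and GLUD1 and of GOT1 and GLS2 were apart between neighbours there. ASNS ran from 9.60 to 45.6 TPM, and its place rested on induced replicate 3, without which it held 14.1 TPM and stayed eighth, below GOT1, PYCR1 and GPT2 at 16.5, 16.4 and 15.9 TPM. Its places in the induced cells also depend on the equal division of shared pairs with ENSG00000284707. That gene held 21.85 TPM on average in the induced cells, so the rank of ASNS is uncertain with and without induced replicate 3.

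**Figure D4:**
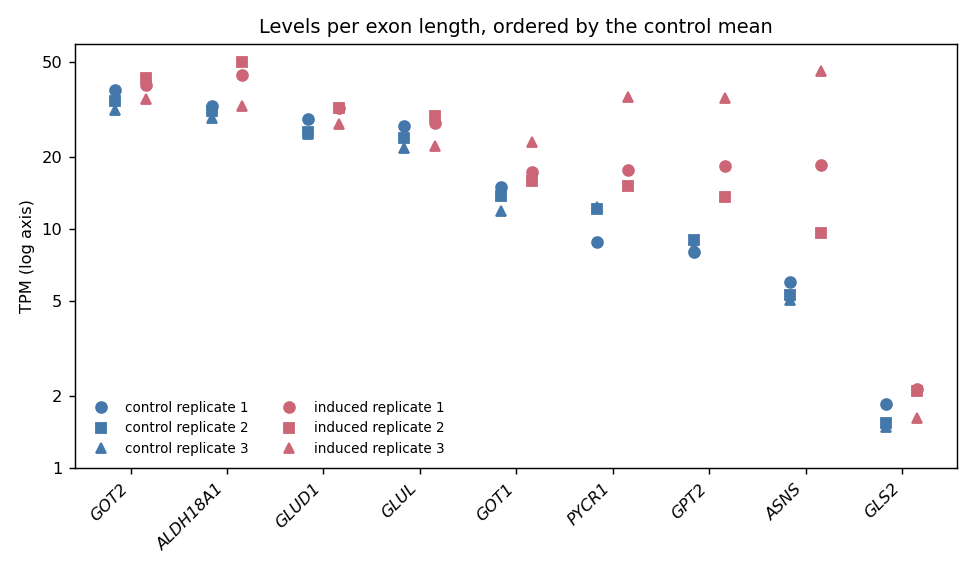
TPM of the 9 enzymes on a log axis, ordered by the control mean, in the 3 control (blue) and 3 MYCN-induced (red) libraries, marker shape giving the replicate number. Controls fall from 34.5 TPM for GOT2 to 1.63 TPM for GLS2, and the induced libraries of ASNS spread from 9.60 to 45.6 TPM.

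Ratios of paired enzymes within a library do not depend on its size, and they were compared with a two-sided exact permutation test, adjusted over 6 ratios of which 5 are given, which with 3 against 3 libraries cannot give a p below 0.1. The ratio of asparagine synthetase to glutamine synthetase (ASNS to GLUL, TPM) was 0.223, 0.221 and 0.231 in the controls and 0.67, 0.323 and 2.06 in the induced libraries, without overlap (exact permutation p = 0.1, adjusted over the 6 ratios 0.2). The log2 difference of this ratio was 1.76, and 1.05 without induced replicate 3. The level of the ratio carries the uncertainty in the share of pairs assigned to ASNS. GLUL to GLS2 was 14.4, 15.5 and 14.7 against 12.8, 14.1 and 13.6, lower in each induced library (exact permutation p = 0.1, adjusted 0.2), with the uncertainty of GLS2 given above.

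The remaining ratios overlapped between the groups. ALDH18A1 to PYCR1, the first over the last enzyme of proline synthesis, was 3.70, 2.57 and 2.35 in the controls and 2.50, 3.28 and 0.913 in the induced libraries (exact permutation p = 0.5, adjusted 0.5). Mitochondrial GOT2 to cytosolic GOT1 was 2.54, 2.51 and 2.62 against 2.3, 2.7 and 1.52 (exact permutation p = 0.4, adjusted 0.48). In both, induced replicate 3 was the lowest of the 6 libraries, and without it the log2 differences went from -0.53 to 0.025 and from -0.27 to -0.035. The ratio of PYCR1 to PRODH, the enzyme that opens proline breakdown, rested on PRODH at no more than 0.414 CPM and had an exact permutation p of 0.2 (adjusted 0.3), with a log2 difference of 1.49, and of 0.97 without induced replicate 3.

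Of a list of 59 other genes of the pathway, written from general knowledge, 47 were tested. BCAT1, the cytosolic branched-chain aminotransferase, was the 1 gene that rose (1.02% of all tested genes rose) and 2 genes fell (2.38% of all tested genes), ABAT, which breaks down the transmitter GABA, and CPS1, the first enzyme of the urea cycle. Of the 47, 28 had a log2 fold change above 0 and 19 below, with a median of 0.05, against 9 above 0 and a median of 0.43 for the 9 enzymes. Both lists were chosen with earlier results of these data known, so setting them side by side is a description only. The induced libraries lay wholly above the controls for 7 and wholly below for 7 of the 47, near the shares over all tested genes of 11.5% above and 14.7% below. Without induced replicate 3, when 3.68% of all tested genes rose and 4.44% fell, 4 of these genes rose (BCAT1, the glutamine transporter SLC38A1 and the amide-using enzymes of nucleotide synthesis PPAT and CTPS1) and 4 fell (ABAT, CPS1, GGT7 and ADSS1).

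BCAT1 held 210, 207 and 203 CPM in the controls and 402, 380 and 500 CPM in the induced libraries (log2 fold change 1.05, SE 0.10, edgeR adjusted p = 0.00460). ABAT fell from 16.3, 16.5 and 15.9 CPM to 10.9, 11.2 and 9.95 CPM (-0.60, edgeR adjusted p = 0.0155). CPS1 fell from 7.54, 7.67 and 6.88 CPM to 4.78, 4.36 and 3.70 CPM (-0.78, edgeR adjusted p = 0.0206). For these 3 genes induced replicate 3 had the most extreme value of the induced libraries. The calls of ABAT and CPS1 were both lost when any 1 of the controls or induced replicate 1 was left out. Without induced replicate 2, 1 gene of the list was called lower. In these fits 72 to 297 genes fell over all tested genes, against 692 with all 6 libraries. SLC1A5, the glutamine transporter of the plasma membrane, held 75.3, 88.5 and 89.5 CPM against 139, 103 and 264 CPM (1.0, adjusted p = 0.128, and 0.53, adjusted p = 0.0649, without induced replicate 3), in the library order of ASNS. ASS1, which uses aspartate to make argininosuccinate, held 587, 616 and 588 CPM against 755, 560 and 1455 CPM, with overlap (0.63, adjusted p = 0.317, and 0.15, adjusted p = 0.49, without induced replicate 3).

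PYCR3, a paralog of PYCR1, had a log2 fold change of 0.22 (95% interval -0.79 to 1.22, edgeR adjusted p = 0.842), and GPT, the cytosolic counterpart of GPT2, had -0.36 (95% interval -1.08 to 0.36, edgeR adjusted p = 0.598). GLUD2, the second glutamate dehydrogenase, held at most 1 count in any library. Among the 12 listed genes that did not pass the count filter was also PSAT1, the aminotransferase of serine synthesis, with 22, 8 and 3 counts in the controls and 3, 2 and 3 counts in the induced libraries.

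**Figure D5:**
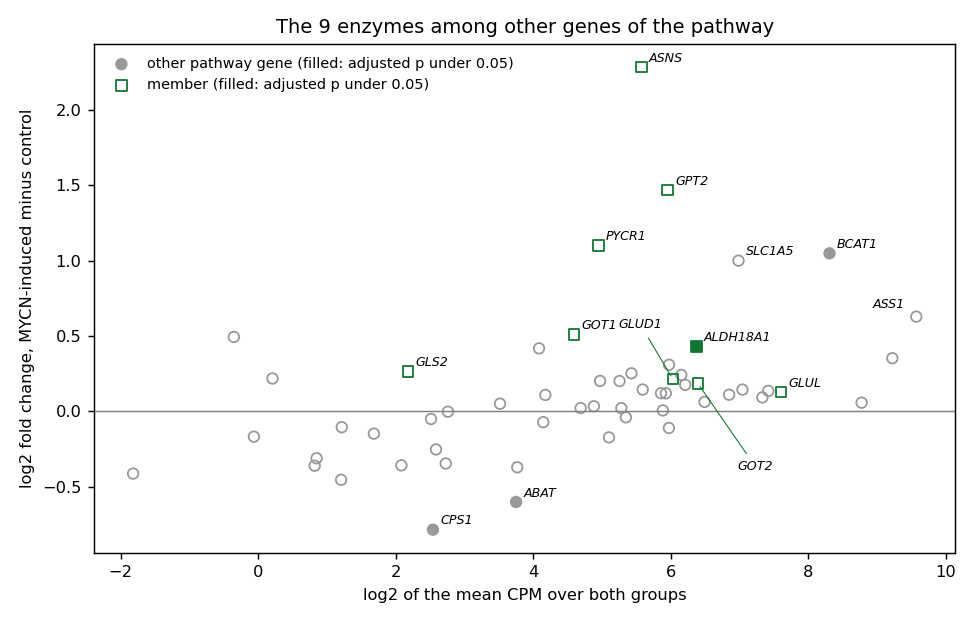
Log2 fold change (MYCN-induced minus control) against log2 of the mean CPM over both groups for the 9 enzymes (green squares) and 47 other tested genes of the pathway (grey circles), filled where the edgeR adjusted p was below 0.05. ASNS (2.28) and GPT2 (1.47) lie above every other gene shown but are not filled, and the filled points are ALDH18A1 (0.43), BCAT1 (1.05), ABAT (-0.60) and CPS1 (-0.78).

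Likeness of expression was measured for ASNS and PYCR1 as the root mean square difference of log2 CPM relative to the control mean over the 6 libraries, among 18534 genes with a mean of at least 1 CPM. After ENSG00000284707 (0.082), which shares its exons, the genes most like ASNS were JDP2 (0.126), NDUFA4L2 (0.156), PHGDH (0.172) and VIP (0.188). PHGDH, the first enzyme of serine synthesis, lay at 1.79, 0.85 and 2.91 in induced replicates 1, 2 and 3 on the log2 scale relative to its control mean, where ASNS lay at 1.73, 0.66 and 3.28. For PYCR1 they were SLC1A5 (0.161), OSGIN1 (0.165), ATF5 (0.171), UNC5B (0.178) and KCNG1 (0.199). Among the 9 enzymes GPT2 was nearest to both, at rank 32 for ASNS and rank 47 for PYCR1, and GLUL was farthest, at ranks 5536 and 6557. These distances describe 6 libraries and carry no test.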

How the data were processed

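RNA of 3 control and 3 MYCN-induced SK-N-AS cultures was sequenced as total RNA depleted of ribosomal RNA. Groups and replicate numbers come from the sample labels, and the study's methods describe 3 independent experiments, so p-values measure the spread between these cultures. The authors aligned reads to GRCh38 with STAR 2.7.1a and deposited estimated counts, read pairs per gene over exons, made with featureCounts. The submitters' processing notes name version 1.5.1 and the file header 1.6.4, with unique alignments, pairs on several genes shared in equal fractions and no strand option, while the study's methods list a strand option and multi-mapped reads. Between 31.9% and 33.4% of the values above 0 were not whole. Among genes with at least 100 counts and no exon overlap, 21.5% to 24.9% also had a count that was not whole. The source of those fractions was not tested.

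Identifiers were matched to GENCODE release 44 (99.65% had a symbol), and the spans of all 9 enzymes were the same there. After rounding to integers, the 29086 genes that reached 10 counts in 3 or more libraries entered edgeR 4.0.16 under R 4.3.3 (TMM, quasi-likelihood test, Benjamini-Hochberg adjustment over all tested genes). Intervals are unadjusted 95% intervals, and a log2 fold change has its SE from the F statistic. TPM used the exon length in the deposited files. Replicates differed by more than sampling noise (chi-square per gene 12.1 to 145.6), so none was merged, and the code was tested on simulated data. Alternatives were other normalizations, DESeq2 1.42.0, no count filter or at least 100 counts in every library, a replicate block, leaving out each library, CPM ratios and, added after the data were seen, sums with overlapping genes and the order of levels without induced replicate 3.

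The 9 enzymes, the pathway, marker and motif lists and the rules were chosen with earlier results of these data known. Besides the 9 enzymes and MYCN, the text names ATF4, DDIT3 and TRIB3, some paralogs, the called genes of the pathway list, its 5 largest changes at a mean of at least 1 CPM, and the 5 genes most like ASNS and PYCR1. PHGDH was described further, and PSAT1, PRODH, further genes called without induced replicate 3, the pseudogene copies and overlapping genes were named, after their values were seen. Promoter windows come from RefSeq. CircRNAs were not analysed here, and some genes of the pathway list and 1 ratio are not reported here.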

Additional observations from a re-analysis of the deposited data

How the results depend on the processing

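Of 285 values under alternatives, 235 kept their direction, call or size, and each of the 9 enzymes kept a positive sign. Leaving out each library in turn gave 18 to 1060 genes higher and 72 to 1279 lower, 0 to 3 enzymes higher (median log2 fold change 0.302 to 0.435), and 1 to 4 other pathway genes higher and 0 to 4 lower. ASNS then ran from 1.30 to 2.704 (edgeR adjusted p 0.0329 to 0.281), GPT2 from 0.83 to 1.78 (0.0298 to 0.286) and ALDH18A1 from 0.38 to 0.51 (0.00319 to 0.171), and the ALDH18A1 to PYCR1 log2 ratio, at -0.53 over all libraries, from -0.898 to 0.025 (without induced replicate 3). DESeq2 gave 904 genes higher, 1199 lower, 2 enzymes and 3 other pathway genes higher, and ASNS at 2.30 (adjusted p 0.0285). With no count filter 470 genes and 3 enzymes were higher, with ASNS at 2.30 (0.0195) and GPT2 at 1.48 (0.0276). At least 100 counts in every library gave 404 genes lower, from fewer genes tested. With library size only, 0 enzymes were higher and ALDH18A1 was 0.40 (0.0859), and with upper-quartile normalization ALDH18A1 was 0.40 (0.055) and ASNS 2.24 (0.0483). The cause of these shifts was not tested. Fits without 1 library leave fewer samples.

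Same-numbered libraries correlated at 0.216, -0.019 and 0.074 in their deviations from the group means, so the numbers were not taken as pairs. Under the replicate block 265 genes rose and 575 fell, 1 enzyme rose (ALDH18A1, 0.43, edgeR adjusted p 0.0423), ASNS was 1.89 (0.0779) and GPT2 1.29 (0.0731), and no call on the 9 enzymes changed. With 3 against 3 libraries no ratio could pass, and GLS2 had the fewest counts of the 9, at 344 to 465 per library.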
